A study of Rattus norvegicus with 12 samples.

Results

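The miR-130 and miR-301 family was followed in the hippocampus of 12 adult male rats, 4 given vehicle and 8 given ethanol. Members were taken by name: every mature miRNA listed under the stems rno-miR-130a, rno-miR-130b, rno-miR-301a or rno-miR-301b, with both arms. This gave 8 of the 753 mature miRNAs listed, namely a 3p and a 5p arm of each stem. All rats were Sprague Dawley males aged P70 to P80, injected once with vehicle or with 4 g/kg ethanol, and tissue was collected 3 h later. The sample labels call the tissue right hippocampus, while the study describes dorsal hippocampus, and whole tissue was used, so fewer cells of a type and less RNA per cell cannot be told apart. The study describes 8 rats per group, and vehicle rats other than the 4 used here were not analysed here. Rats are named below by group and animal number.

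A miRNA hairpin is cut into 2 arms, and the arm that is kept in the silencing complex pairs with target mRNAs mainly through its seed, bases 2 to 8. In this family the 3p arm is the usual guide and carries the seed that defines the family, while the 5p arm is usually degraded. The family is known for work on hypoxia, vascular growth, adipogenesis and TGF-beta signaling, and miR-301a also for raising NF-kappa-B activity. Rat miR-301b and miR-130b come from neighbouring hairpins, whereas miR-130a and miR-301a have loci of their own.

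The mature sequences show what the members share and where they part, with the seed in capitals. They are RefSeq's for the rat assembly GRCr8 and were matched by name, which succeeded for 7 of the 8 members, all but rno-miR-301a-3p. The 3p arms come first and the 5p arms follow.
rno-miR-130a-3p: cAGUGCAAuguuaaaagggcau
rno-miR-130b-3p: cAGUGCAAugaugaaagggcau
rno-miR-301b-3p: cAGUGCAAugguauugucaaagc
rno-miR-130a-5p: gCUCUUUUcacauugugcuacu
rno-miR-130b-5p: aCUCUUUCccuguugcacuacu
rno-miR-301a-5p: gCUCUGACuuuauugcacuac
rno-miR-301b-5p: gCUCUGACuagguugcacuacu

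Counted from 1 at the 5′ end, rno-miR-130a-3p and rno-miR-130b-3p were identical at 20 of 22 bases and differed by U11A and A13G. rno-miR-301b-3p shared the first 10 bases with rno-miR-130a-3p and 13 of the first 22 bases in all. Of the sequences at hand, these were the 3 of 693 rat mature names in RefSeq with the seed AGUGCAA (0.433%). The 5p arms split by name instead: rno-miR-301a-5p and rno-miR-301b-5p shared a seed and differed by U10A, U11G and A12G over 21 bases. The 5p arms of miR-130a and miR-130b had seeds that differed only in the last base.

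The hairpins show where the arms lie, with both mature arms in capitals. On GRCr8, Mir301b (chr11:97384033-97384110, plus strand) ended 269 bases before Mir130b (chr11:97384380-97384461, plus strand), and both overlapped the protein-coding gene 2610318N02Rikl. Mir130a (chr3:90229228-90229315, minus strand) overlapped the hairpin Mir3590. Mir301a, on chromosome 10, overlapped Ska2 and Prr11. Whether these positions are exonic or intronic was not determined here.
Mir301b: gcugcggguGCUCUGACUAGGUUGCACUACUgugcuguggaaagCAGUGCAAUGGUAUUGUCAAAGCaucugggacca
Mir130b: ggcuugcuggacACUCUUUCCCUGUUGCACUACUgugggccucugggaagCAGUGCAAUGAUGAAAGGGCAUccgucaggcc
Mir130a: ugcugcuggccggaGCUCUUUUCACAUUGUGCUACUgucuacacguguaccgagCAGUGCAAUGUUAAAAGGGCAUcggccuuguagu

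Libraries held between 1960702 and 4917929 estimated miRNA counts, which ranged from 2243412 to 4917929 in vehicle rats and from 1960702 to 3598773 in ethanol rats. Levels are given as CPM, counts scaled to a common library size with TMM factors. A detection floor of 3 counts was worth between 0.61 and 1.53 CPM, covering counting error only. No pair of libraries agreed within sampling noise, the lowest chi-square per degree of freedom over 66 pairs being 38.5. Neuronal marker miRNAs (4 of 4 listed) summed to between 33082 and 38208 CPM in vehicle rats and between 30039 and 37626 CPM in ethanol rats. Choroid plexus markers (4 of 4 listed) ranged more widely, from 29002 to 50295 CPM in vehicle rats and from 16526 to 70924 CPM in ethanol rats, as did striated muscle markers (4 of 4 listed), at 126 to 1764 CPM (mean 1300.0) and 112 to 1711 CPM (mean 380.0). The part of the lower muscle marker mean in ethanol rats in the comparisons below was not tested. Endothelial markers (2 of 2 listed) ranged from 2436 to 2913 CPM and from 2207 to 2972 CPM. Ethanol 16 stood apart from the other ethanol rats in the miR-301 3p arms. The log2 differences of those arms, their CVs and their correlation are given with and without it.

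The family signal came almost wholly from 2 of the 8 members. rno-miR-130a-3p averaged 656 CPM over the 12 libraries and ranked 96 of 753 by mean level, and rno-miR-301a-3p averaged 544 CPM and ranked 105. rno-miR-301b-3p followed at 51.0 CPM and rno-miR-130b-3p at 3.98 CPM. Of the 5p arms, rno-miR-301a-5p averaged 2.12 CPM and rno-miR-130b-5p 1.24 CPM, near the detection floor. rno-miR-130a-5p had 5 reads in all 12 libraries together and 0 in 8 of them, and rno-miR-301b-5p had 0 reads in every library. A filter that dropped miRNAs with under 10 reads in at least 10 libraries retained 420 miRNAs, among them the 4 3p arms and no 5p arm.

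**Figure D1:**
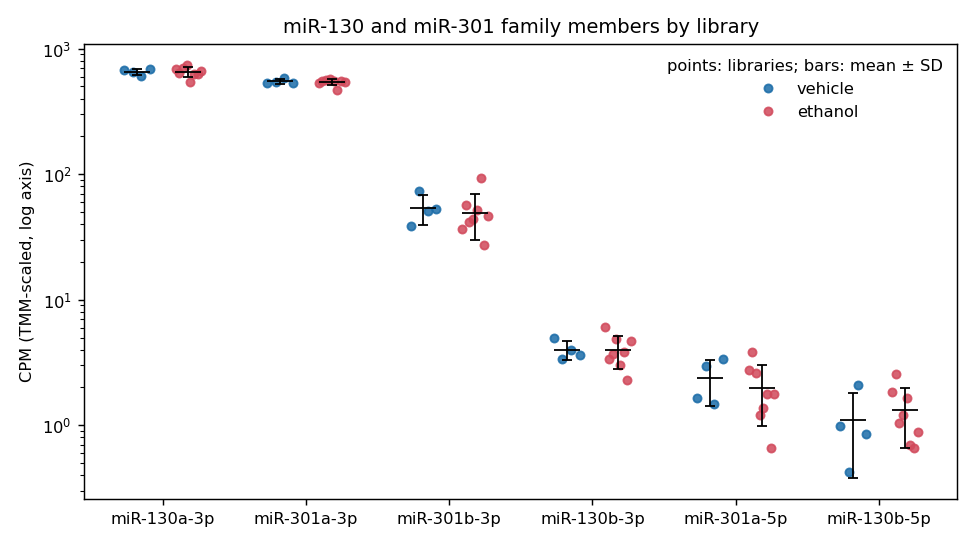
CPM of each member in each rat on a log axis, for the 6 members with more than a few reads, with 1 point per library and bars at the group mean ± SD. rno-miR-130a-3p and rno-miR-301a-3p sit near 656 and 544 CPM, rno-miR-301b-3p near 51.0 CPM, and the remaining members at or under about 3.98 CPM.

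Neighbours in this order were compared within each library by a two-sided exact sign-flip permutation test, adjusted over 7 pairs. rno-miR-130a-3p was 1.2-fold above rno-miR-301a-3p (mean log2 ratio 0.27 ± 0.14, SD, n = 12; adjusted permutation p = 0.00171) and was the higher in 11 of 12 libraries, all but ethanol 15. rno-miR-301a-3p was 11.2-fold above rno-miR-301b-3p in all 12 (3.48 ± 0.51, SD), and rno-miR-301b-3p was 12-fold above rno-miR-130b-3p in all 12 (3.59 ± 0.58, SD), each with an adjusted permutation p of 0.00171. The step from rno-miR-130b-3p to rno-miR-301a-5p was 1.93-fold in 11 of 12 libraries (adjusted permutation p = 0.00205), and that from rno-miR-301a-5p to rno-miR-130b-5p was 1.62-fold in 8 of 12 (adjusted permutation p = 0.016). rno-miR-130a-5p and rno-miR-301b-5p, both at or near 0 reads, gave a permutation p of 0.125. Only 4 libraries held any read of rno-miR-130a-5p and none held rno-miR-301b-5p. The test could therefore give no lower p, and it cannot tell whether the 2 arms differed. CPM comparisons between miRNAs carry no length term, and capture bias between sequences was not tested.

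The 3p arms of the neighbouring hairpins thus differed in reads: in each library that of miR-301b exceeded that of miR-130b by between 6.08-fold and 24.0-fold. Their 5p arms went the other way, with 46 reads of rno-miR-130b-5p and 0 of rno-miR-301b-5p over all libraries. Levels of the hairpins themselves were not measured. Estimated counts lay more than 0.01 from a whole number in all 12 libraries for rno-miR-130a-3p, rno-miR-130b-3p and rno-miR-301b-3p and in 11 of 12 for rno-miR-301a-3p, which happens where a read fitting several miRNAs is divided among them. The sum of the estimated counts of rno-miR-130a-3p and rno-miR-130b-3p was whole, within 0.01, in 12 of 12 libraries. For rno-miR-301a-3p and rno-miR-301b-3p it was whole in 5 of 12. The distance of a single count from a whole number reached 0.0347 for rno-miR-130a-3p and rno-miR-130b-3p. It reached 0.43 for rno-miR-301a-3p and 0.393 for rno-miR-301b-3p. This distance does not give the number of reads divided. The level of a single 3p arm is therefore uncertain to the extent that reads were divided.

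No change of the family 3 h after ethanol was detected. In edgeR's quasi-likelihood fit of all 420 miRNAs (Benjamini-Hochberg adjusted), 0 of 4 retained members had an adjusted p under 0.05, against 0 of 420 miRNAs (0%), and the lowest adjusted p of any miRNA was 0.971. At an unadjusted p under 0.05 edgeR called 0 of 4 members, against 17 of 420 miRNAs (4.05%). DESeq2 and limma-trend also called 0 of 4 members, adjusted or unadjusted, against 1 of 420 (0.238%) and 0 of 420 miRNAs at an adjusted p under 0.05, and 16 of 420 (3.81%) each at an unadjusted p under 0.05. The groups overlapped for all 4 members, and did not overlap for 1 of 420 miRNAs (0.238%). The members' median log2 difference, ethanol minus vehicle, was -0.02, and so was that of all 420 miRNAs.

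rno-miR-130a-3p stood at 677, 648, 608 and 693 CPM in vehicle rats 9, 10, 19 and 20. In ethanol rats it ran from 542 to 746 CPM with a median of 655 CPM. Of the 8 ethanol rats, 5 fell within the vehicle range, 1 below it and 2 above it. The means were 656 ± 37.2 (SD, n = 4) and 656 ± 61.8 CPM (SD, n = 8), and the fitted fold had a 95% interval of 0.883 to 1.13 (edgeR adjusted p = 1.0).

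rno-miR-301a-3p stood at 533, 543, 587 and 529 CPM in the same vehicle rats and between 468 and 569 CPM in ethanol rats, with a median of 553 CPM. Of the ethanol rats, 6 fell within the vehicle range and 2 below it. The log2 difference was -0.02 with a standard error of 0.07, and the interval of the fold was 0.895 to 1.09 (edgeR adjusted p = 0.997). Only 14 of the 420 retained miRNAs had a smaller standard error, the median being 0.14. Without ethanol 16 the log2 difference of rno-miR-301a-3p was 0.01 (edgeR adjusted p = 0.986).

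rno-miR-301b-3p stood at 38.6, 73.2, 51.3 and 52.6 CPM in vehicle rats and between 27.2 and 92.7 CPM in ethanol rats, with a median of 44.9 CPM. The ethanol rats straddled the vehicle range, with 5 inside it, 2 below and 1 above. The log2 difference was -0.12 with a standard error of 0.27, and the fold interval of 0.619 to 1.37 was wider than those of the abundant members (edgeR adjusted p = 0.981). Its sign rested on vehicle 10, the vehicle rat with the highest level: without that rat the log2 difference was 0.06. Without ethanol 16, the ethanol rat with the highest level, it was -0.31 (edgeR adjusted p = 0.841).

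rno-miR-130b-3p rested on 7 to 19 reads a library. It stood at 4.95, 3.4, 4.0 and 3.62 CPM in vehicle rats and between 2.3 and 6.02 CPM in ethanol rats, with 4 of 8 inside the vehicle range, and the fold interval was 0.69 to 1.4 (edgeR adjusted p = 1.0). The 5p arms were too scarce for the fit and were compared on log2 CPM by exact permutation. rno-miR-301a-5p, on 2 to 16 reads a library, averaged 2.38 ± 0.96 CPM in vehicle rats and 2.0 ± 1.02 CPM in ethanol rats (exact permutation p = 0.479). rno-miR-130b-5p, on 1 to 10 reads, averaged 1.09 ± 0.715 and 1.32 ± 0.656 CPM (exact permutation p = 0.521). No difference was detected for either arm.

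**Figure D2:**
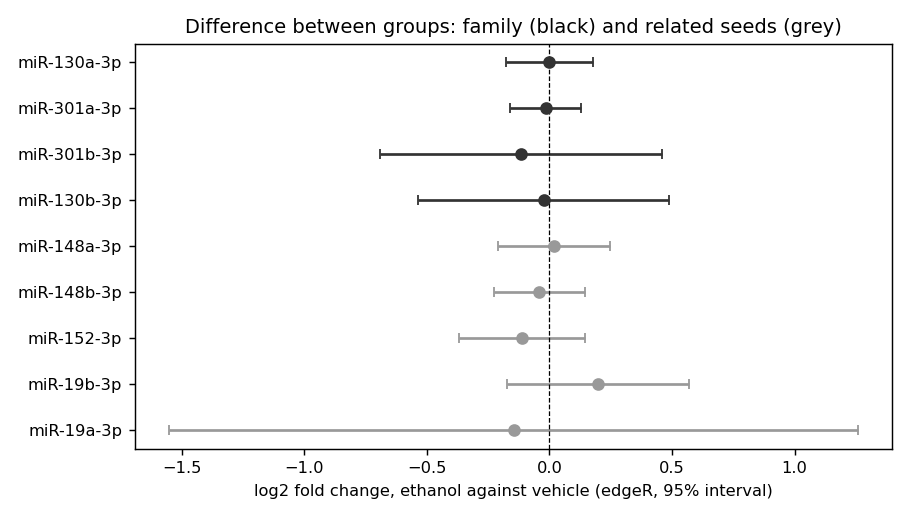
Log2 difference between ethanol and vehicle rats for the 4 retained members (black) and 5 miRNAs of related seeds (grey), with 95% intervals from edgeR. All intervals span 0, and that of rno-miR-301a-3p, from -0.16 to 0.13 on the log2 scale, is the narrowest.

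Added over the 3p arms, the family stood at 1254, 1268, 1250 and 1278 CPM in vehicle rats and between 1147 and 1364 CPM in ethanol rats, with a median of 1259 CPM. The log2 difference was -0.01 (two-sided exact permutation p = 0.725). The vehicle rats lay closer together, at 1262 ± 12.8 CPM against 1251 ± 68.3 CPM (SD, n = 4 and 8), and this difference in spread was not tested. No difference in the make-up of the sum was detected: rno-miR-130a-3p held 52.0% ± 2.64 and 52.3% ± 2.45 of it in vehicle and ethanol rats, rno-miR-301a-3p 43.4% ± 2.42 and 43.4% ± 2.69, rno-miR-301b-3p 4.27% ± 1.11 and 3.99% ± 1.71, and rno-miR-130b-3p 0.317% ± 0.0566 and 0.316% ± 0.087 (SD, n = 4 and 8; adjusted exact permutation p = 0.998 for each).

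The share of reads from the 5p arm set miR-130b apart from the other stems. Over all libraries, 46 of its 190 reads (24.2%, exact Clopper-Pearson 95% interval 18.3 to 30.9%) came from the 5p arm, against 76 of 20061 reads of miR-301a (0.379%, 0.299 to 0.474%) and 5 of 23860 reads of miR-130a (0.021%, 0.0068 to 0.0489%). miR-301b gave 0 of 1871 reads, for which the same interval reaches up to 0.197%. Intervals cover counting error only and pool the rats. Single libraries of miR-130b gave between 11.1% and 42.9%, on 1 to 10 5p reads and 7 to 19 3p reads. rno-miR-130b-5p was no more abundant than rno-miR-301a-5p (1.24 against 2.12 CPM), while rno-miR-130b-3p, at 3.98 CPM, was the scarcest 3p arm. rno-miR-130b-3p can share reads with rno-miR-130a-3p, and the estimated counts of both lay at most 0.0347 from a whole number. The part of read division in the 5p share of miR-130b was not tested.

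**Figure D3:**
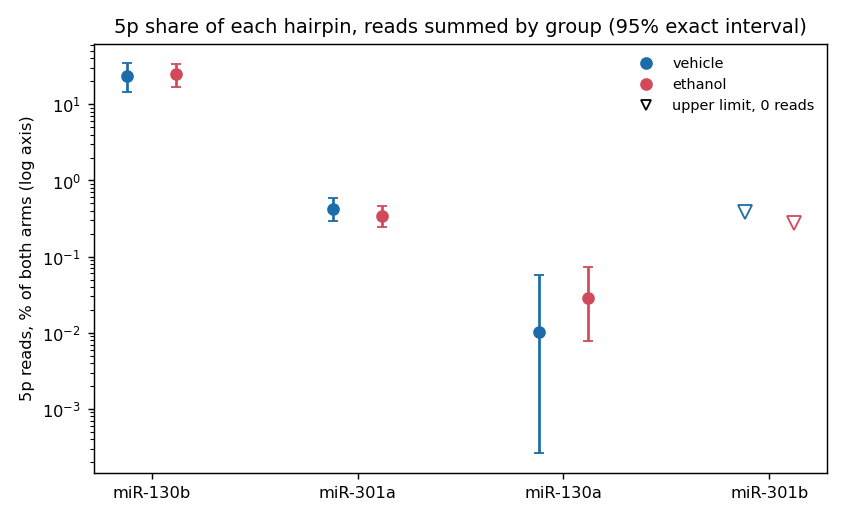
Percent of each stem's reads from the 5p arm, on a log axis, with reads summed over the libraries of a group and 95% exact binomial intervals. Open triangles mark the limit of 3 counts of the total where the 5p arm had 0 reads. The miR-130b shares, 23.4% in vehicle and 24.8% in ethanol rats, lie above those of miR-301a (0.427% and 0.346%).

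No change of the arm ratio with ethanol was detected, on 1 to 10 5p reads a library for miR-130b and 2 to 16 for miR-301a. The log2 ratio of 5p to 3p reads of miR-130b, with 0.5 added to each count, ranged from -2.5 to -0.89 in vehicle rats and from -2.24 to -0.39 in ethanol rats, means -1.88 ± 0.69 and -1.53 ± 0.64 (SD, n = 4 and 8). The difference of 0.35 gave an exact permutation p of 0.42 (0.572 adjusted over 2 stems). For miR-301a the means were -7.85 ± 0.62 and -8.1 ± 0.74, a difference of -0.26 (exact permutation p = 0.572, adjusted 0.572).

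The 3p arms also differed in how steady they were between rats. rno-miR-301a-3p had a coefficient of variation (CV) of 5.42% over the 12 libraries, the 4th lowest of 420 miRNAs, whose median was 16.6%. rno-miR-130a-3p varied by 8.07%, rank 38 from the lowest. Counting alone would give 2.55% for rno-miR-301a-3p and 2.32% for rno-miR-130a-3p. The ranks span miRNAs of all read depths, with larger counting error at low counts, and these 2 arms were not compared at like depth. rno-miR-301b-3p varied by 34.3%, rank 351, although counting alone would give 8.76%. Of 98 miRNAs with a mean count between 80 and 320, a window chosen after the values were seen, 8 had a larger CV, and the median was 16.1%. rno-miR-130b-3p varied by 25.2%, against 30.5% from counting alone. Leaving out ethanol 16, a choice made after its values were seen, the CV was 3.29% for rno-miR-301a-3p, the lowest of 420, and 25.6% for rno-miR-301b-3p, rank 299. That library was picked because it stood apart in these arms, which lowers their CVs by choice. The ranks without it are therefore not a fair comparison with the other miRNAs.

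**Figure D4:**
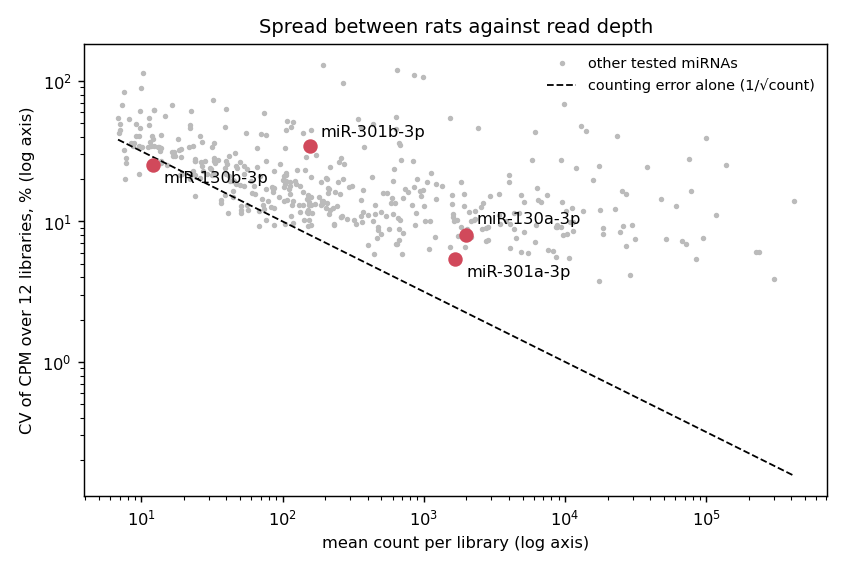
CV of CPM over the 12 rats against mean count for the 420 retained miRNAs, both on log axes, with the family's 3p arms marked and a line for counting error alone. rno-miR-301a-3p (5.42%) lies low in the cloud and rno-miR-301b-3p (34.3%) high.

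The levels of rno-miR-301a-3p and rno-miR-301b-3p were opposite in ethanol 16, the rat with the lowest rno-miR-301a-3p (468 CPM) and the highest rno-miR-301b-3p (92.7 CPM). The ratio of rno-miR-301b-3p to rno-miR-301a-3p was 0.198 in that library and between 0.0491 and 0.135 in the other 11, where vehicle 10 was highest. The sum of the pair ran from 561 to 638 CPM with a CV of 3.96%, and ethanol 16 was the lowest. That sum, chosen after the values were seen, was 602 ± 30.7 CPM in vehicle rats and 592 ± 20.7 CPM in ethanol rats (SD, n = 4 and 8; exact permutation p = 0.509). In ethanol 16 choroid plexus markers stood at 58272 CPM and striated muscle markers at 1711 CPM, the latter the highest among ethanol rats, whereas in vehicle 10 both lists were at the lowest level of the vehicle rats, 29002 and 126 CPM. Oligodendrocyte markers (2 of 2 listed) stood at 9685 CPM in ethanol 16, the lowest of the ethanol rats (up to 18748 CPM), and at 9811 CPM in vehicle 10, where vehicle rats ranged from 9193 to 17361 CPM. Their part in the pair's levels was not tested.

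**Figure D5:**
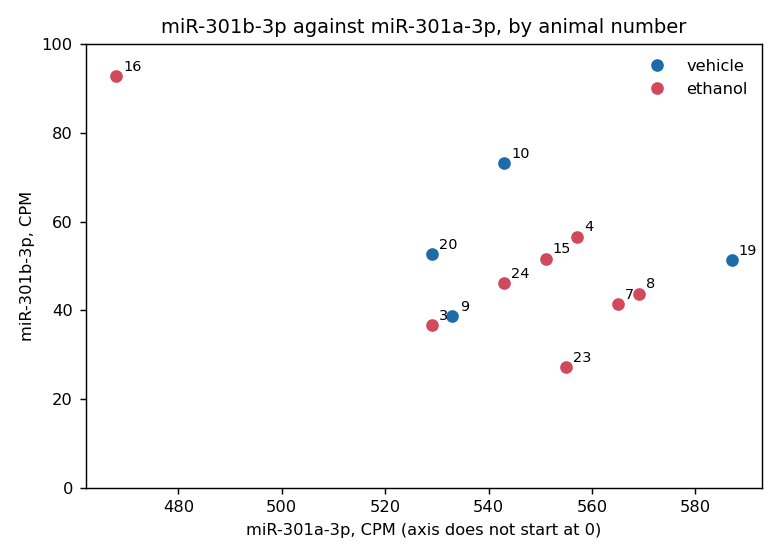
CPM of rno-miR-301b-3p against rno-miR-301a-3p, 1 point per rat, colored by group and marked with the animal number, the horizontal axis not starting at 0. Ethanol 16 stands apart at 468 and 92.7 CPM.

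No covariation of the 3p arms across rats was detected. Of 6 pairs none reached an adjusted permutation p under 0.05, the lowest being 0.29 by Pearson's r and 0.478 by Spearman's rho. rno-miR-130b-3p, on 7 to 19 reads a library, varied no more than counting alone would give (CV 25.2% against 30.5%). Every correlation with it below therefore cannot be told from counting noise, and those pairs cannot show whether it covaried. The strongest relation by both measures was that of rno-miR-130a-3p and rno-miR-130b-3p (Pearson's r = 0.55, permutation p = 0.0614; Spearman's rho = 0.53, permutation p = 0.0797; n = 12), with r = 0.45 without the 2 libraries farthest from the median and 0.62 within the 8 ethanol rats. rno-miR-301a-3p and rno-miR-301b-3p gave r = -0.51 (permutation p = 0.0965) and rho = -0.16 (permutation p = 0.619), and without ethanol 16 r was 0.04 (permutation p = 0.901), so the relation rested on that library. The clustered pair, rno-miR-301b-3p and rno-miR-130b-3p, gave r = -0.02 (permutation p = 0.956) and rho = -0.32 (permutation p = 0.309). Its r was 0.13 within the 8 ethanol rats. Without ethanol 16 and ethanol 23, the 2 libraries farthest from the median of rno-miR-301b-3p, r was -0.74, and no p was computed for this value. The 4 vehicle rats are too few for a value of their own.

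The miRNAs most like each member in log2 CPM are given as a description, over 12 libraries that share scaling and depth, among 340 retained miRNAs of at least 10 CPM. For rno-miR-130a-3p they were rno-miR-28-3p (r = 0.8), rno-let-7e-3p (0.76) and rno-miR-193a-3p (0.75). For rno-miR-301a-3p they were rno-miR-27b-3p (0.82), rno-miR-27a-3p (0.77) and rno-miR-93-5p (0.7). rno-miR-301b-3p was most like rno-miR-666-3p (0.72), rno-miR-505-3p (0.63) and rno-miR-187-3p (0.63), and rno-miR-130b-3p most like rno-miR-382-5p (0.82), rno-miR-758-3p (0.75) and rno-miR-28-5p (0.74). No other member was among these by construction, since only miRNAs outside the family were searched. For each member the 3 highest of 340 values of r are shown, so they were picked for being high. rno-miR-130b-3p varied no more than counting alone would give (CV 25.2% against 30.5%), so its likenesses cannot be told from counting noise.

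Of a list of 6 miRNAs with related seeds, 5 were measured, and these carry part of the family's seed in a shifted frame. The other, rno-miR-454-3p, was not among the listed names. The letters GUGCA, in capitals here, begin at base 3 in the family, at base 2 in the miR-19 pair and at base 4 in miR-148 and miR-152.
rno-miR-130a-3p: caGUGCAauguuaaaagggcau
rno-miR-19b-3p: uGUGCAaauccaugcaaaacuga
rno-miR-148a-3p: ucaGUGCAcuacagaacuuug
rno-miR-152-3p: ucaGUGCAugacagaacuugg

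Of the 5, edgeR gave 0 an adjusted p under 0.05, with 2 log2 differences above 0 and 3 below. rno-miR-148a-3p was more abundant than any family member, at 5764 ± 447 CPM in vehicle and 5844 ± 826 CPM in ethanol rats (SD, n = 4 and 8; log2 difference 0.02, SE 0.11, edgeR adjusted p = 0.997). rno-miR-152-3p stood at 893 ± 68.4 and 826 ± 131 CPM (-0.11, SE 0.12, edgeR adjusted p = 0.971), and rno-miR-19b-3p at 31.0 ± 4.0 and 35.7 ± 8.08 CPM (0.2, SE 0.17, edgeR adjusted p = 0.971). rno-miR-3590-3p, from the hairpin that overlaps Mir130a, had 0 to 3 reads a library.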

How the data were processed

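Small RNA libraries of hippocampus from 4 vehicle and 8 ethanol rats were analysed. The authors deposited, for each rat, expected counts (estimated counts of reads) for 753 mature miRNAs, not scaled to library size. The submitters' processing notes name cutadapt, Partek and rn5, without versions, and the miRNA annotation is not given in the sources used here. The study describes removal of rarely read miRNAs, median scaling and an uncorrected test of groups for its own analysis. Nothing in the labels says which libraries were sequenced together, and no batch was therefore tested.

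Before the fit, values were rounded to whole numbers. Totals ranged from 1960702 to 4917929, so rare arms carry large counting error. Counts were scaled by TMM and fitted across 420 miRNAs with edgeR 4.0.16 (R 4.3.3; quasi-likelihood test, no covariates, Benjamini-Hochberg adjustment). DESeq2 1.42.0 and limma 3.58.1 were alternatives. Log2 CPM used a prior count of 2. Two-sided exact permutation tests were used for single values, and correlations by 100000 permutations. Alternatives covered normalization, filter, test, rounding, down-sampling, the library total as a covariate and each rat left out in turn. The miRNAs named are all members by stem, a related-seed list, the overlapping hairpin's arms and, for each 3p arm, the 3 most similar miRNAs. The members and lists were chosen with earlier results of these data known. Sequences are RefSeq's, on GRCr8, not rn5, and were matched by name.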

Additional observations from a re-analysis of the deposited data

Results flagged for a closer look

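Among 30 groups of libraries examined over 15 measures of the family, 3 had 1 library far from the others by Dixon's criterion, where about 1 in 20 groups, or 1.5 here, is set apart by chance. In ethanol 16 the log2 CPM of rno-miR-301a-3p was 8.87, against 9.05 to 9.15 in the other ethanol rats. In the same library rno-miR-301b-3p held 7.76% of the family's 3p sum, against 2.25 to 4.5% in the others, and both values rest partly on the same reads. In vehicle 19 the log2 CPM of rno-miR-130a-5p was -0.21, against -0.61 in the other vehicle rats, which is 1 read against 0.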

How the results depend on the processing

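No member reached an adjusted p under 0.05 in any alternative where it was fitted (rno-miR-130b-3p was not with 10 reads asked for in 10 libraries, or with down-sampled counts), while the count over all miRNAs was 1 with DESeq2 and 0 to 3 with each rat left out, 3 without ethanol 16. The log2 difference of rno-miR-130a-3p, about 0, turned positive with RLE factors (0.01), a stricter filter that asks for 10 reads in 10 libraries (0.03), no filter (0.01), filterByExpr (0.02), DESeq2 (0.01), unrounded counts (0.00145) and down-sampled counts (0.02). That of rno-miR-301a-3p did so with the stricter filter (0.02), filterByExpr (0.01) and down-sampled counts (0.02), and that of rno-miR-301b-3p with down-sampled counts (0.00378). The share of rno-miR-130b-3p differed by 3.04e-06 percentage points with unrounded counts. The correlation of rno-miR-301b-3p with rno-miR-130b-3p was 0.03 with library totals and 0.13 in ethanol rats alone. The cause was not tested.

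Leaving out each rat in turn, log2 differences ranged from -0.04 to 0.06 (rno-miR-130a-3p), -0.03 to 0.03 (rno-miR-301a-3p), -0.31 to 0.06 (rno-miR-301b-3p), -0.09 to 0.09 (rno-miR-130b-3p), -0.03 to 0.0034 (3p sum), 0.14 to 0.67 (miR-130b arm ratio) and -0.49 to -0.05 (miR-301a arm ratio). Shares differed by -0.788 to 1.07, -0.727 to 1.12, -0.817 to 0.224 and -0.0231 to 0.0261 percentage points for rno-miR-130a-3p, rno-miR-301a-3p, rno-miR-301b-3p and rno-miR-130b-3p. The value of -0.817 for rno-miR-301b-3p came without ethanol 16 (unadjusted exact permutation p = 0.218).

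In vehicle rats alone the steps of the order had mean log2 ratios of 0.26, 3.38, 3.68, 0.78, 1.09 and 2.59, and 4 libraries cannot give a sign-flip p below 0.125. In ethanol rats alone the step from rno-miR-301a-5p to rno-miR-130b-5p was 0.5 (adjusted permutation p = 0.0729). No paired analysis was possible because the groups share no replicate number. Depth limits the 5p arms and rno-miR-130b-3p.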
